A study of Mus musculus with 15 samples.

Results

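The genes described here are those that RANKL induced in mouse bone marrow monocytes and that kept close to their RANKL level when pterosin B was present. They were chosen from the measured RPKM values, read counts scaled for exon length and for the library total. A gene was kept if its mean RPKM was at least 1 with RANKL, if it was at least 4-fold higher with RANKL than without (log2 of at least 2, after 0.1 was added to each mean), if each RANKL library was above each library without RANKL, and if pterosin B moved it by less than 0.3 on the log2 scale. Names of the Gm type with a number and names ending in Rik were left out. That window runs from 81.2% to 123% of the RANKL level. Of 41819 genes in the table, 252 met the first criteria and 28 of these (11.1%) also lay within the pterosin B window. Among the other RANKL-induced genes, 212 (84.1%) were below the window and 12 (4.76%) above it.

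RNA sequencing was done on 15 cultures of mouse bone marrow monocytes, 3 libraries in each of 5 groups, with the strain labelled C57BL/6J in all of them. In the pterosin B experiment, SCRP cultures had RANKL with pterosin B at 300 µM, SCR cultures had RANKL alone and SC cultures had vehicle without RANKL. All of them started with 2 days in 50 ng/ml of the macrophage growth factor M-CSF, after which SCRP and SCR were given 50 ng/ml of RANKL beside it for 3 days. How long SC was kept after the first 2 days is not given in the sources used here, so time in culture and RANKL cannot be told apart in SCR against SC. In the knockout experiment, KO cultures came from Rank_Cre/+; Sik3_flox/flox mice, in which Cre is driven by the Rank gene and removes Sik3 from cells of the osteoclast lineage, and WT cultures are labelled as wild type controls. The protocol names Rank_Cre/+ mice too, and whether the WT libraries carried that allele was not stated. The allele and the loss of Sik3 can therefore not be told apart in KO against WT. KO and WT had 2 days in M-CSF and then 2 days with RANKL. Pterosin B comes from bracken fern and is used to inhibit signalling by the kinase SIK3. Whether the libraries of a group came from separate animals is not stated, so a p-value here reflects the spread between libraries, which may be technical.

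RANKL acts through its receptor RANK, a member of the TNF receptor family, which recruits TRAF adaptor proteins and turns on NF-kB and AP-1 transcription factors. The alternative branch of NF-kB runs through the kinase NIK, encoded by Map3k14, and the precursor encoded by Nfkb2, and TRAF and cIAP proteins restrain NIK in resting cells. Prolonged signalling leads to NFATc1, the transcription factor that turns on the genes of the bone-resorbing osteoclast.

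The 9 libraries of SCRP, SCR and SC held 37138648 to 49927591 exon reads each. For the 6 libraries of KO and WT, the totals that follow from counts and RPKM lay between 21267111 and 25932103. Sik3 had 2.57, 1.89 and 2.08 RPKM in KO libraries, against 6.25, 6.37 and 6.01 RPKM in WT libraries. Of the osteoclast differentiation list, 36 genes were tested. By edgeR at an adjusted p under 0.05, 33 were higher and 2 lower in SCR than in SC, where 30.7% and 28.4% of all genes were. The summed level of erythroid and megakaryocyte markers was 0.347 to 34.4 RPKM in SCRP, 0.0780 to 0.151 RPKM in SCR and 0.141 to 0.262 RPKM in SC. The highest of these was SCRP replicate 3, in which the haemoglobin genes Hba-a1 and Hbb-bt had 20.9 and 11.1 RPKM. Without that library the rule gave 29 genes, 27 of them among the 28. Of the other cell type lists, neutrophil markers summed to 14.1 to 20.1 RPKM in SCRP, 38.5 to 41.8 RPKM in SCR and 55.1 to 78.3 RPKM in SC. Monocyte and macrophage markers summed to 7726 to 9008 RPKM in SCRP, 4875 to 5784 RPKM in SCR and 15057 to 17032 RPKM in SC. Of 24 tested, 24 were lower in SCR than in SC by edgeR, where 28.4% of all genes were. In SCRP against SCR, 12 were higher and 4 lower by edgeR, where 17.9% and 19.9% of all genes were. What part such cells have in the levels of the 28 genes was not tested.

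**Figure D1:**
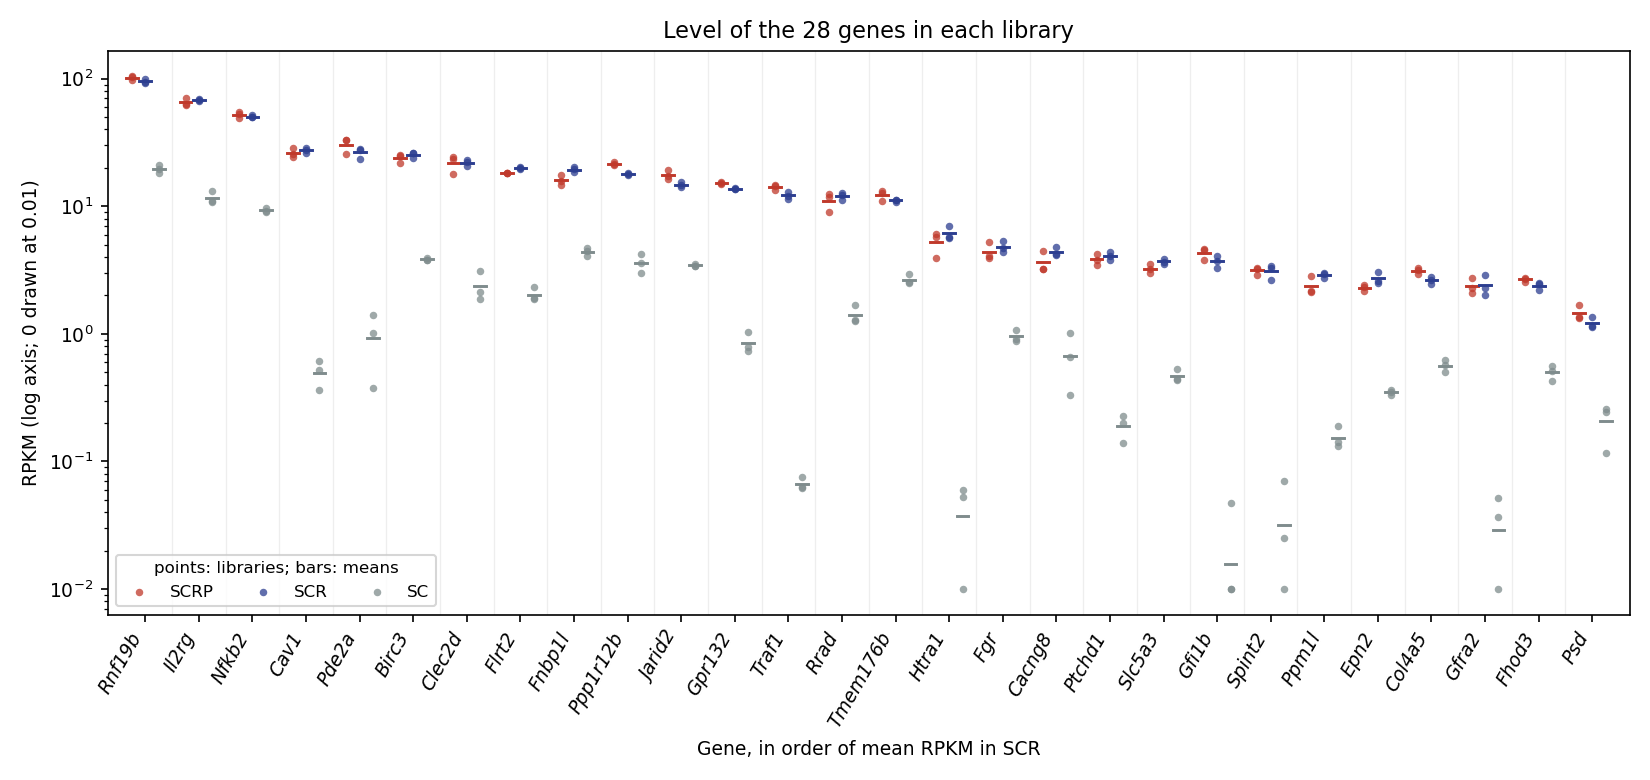
RPKM of the 28 genes (log axis) in the 3 libraries each of SCRP, SCR and SC, with bars at the group means. SCRP and SCR points lie side by side for each gene, as the choice of the genes requires, while SC lies at least 4.19-fold below SCR (Tmem176b).

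Over the 28 genes, log2(SCRP/SCR) ran from -0.28 (Fnbp1l) to 0.26 (Ppp1r12b) with a median of -0.02, and 13 were above 0 and 15 below. The libraries of SCRP and SCR overlapped for 18 genes. For the other 10 they did not, with SCRP above SCR for 6 (Ppp1r12b, Jarid2, Gpr132, Traf1, Col4a5 and Fhod3) and below for 4 (Flrt2, Fnbp1l, Slc5a3 and Epn2). Over all 13650 genes tested, 49.4% did not overlap. By edgeR at an adjusted p under 0.05, 4 of the 28 passed in SCRP against SCR, where 37.8% of all genes passed. Traf1, Jarid2 and Ppp1r12b were the higher ones and Fnbp1l the lower one. The Ppp1r12b call was lost with DESeq2 (adjusted p = 0.0813) and without SCR replicate 1, SCR replicate 3 or SCRP replicate 2, and the count rose to 8 without SC replicate 3. The rule fixed the size of these differences, so they are given as a description. Each of the 28 had all SCRP libraries above all SC libraries, as did 38.9% of all genes (63.2% did not overlap in either direction), and the closest approach was in Fnbp1l, whose lowest SCRP library was 3.12 times its highest SC library. All 28 passed as higher in SCR against SC, where 30.7% of all genes did and 59.1% passed in either direction. All 28 also passed as higher in SCRP against SC, where 28.6% did and 56% passed in either direction. The rule used these libraries, so these counts too are a description. In bulk RNA, fewer cells that express a gene and less RNA per cell cannot be told apart.

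**Figure D2:**
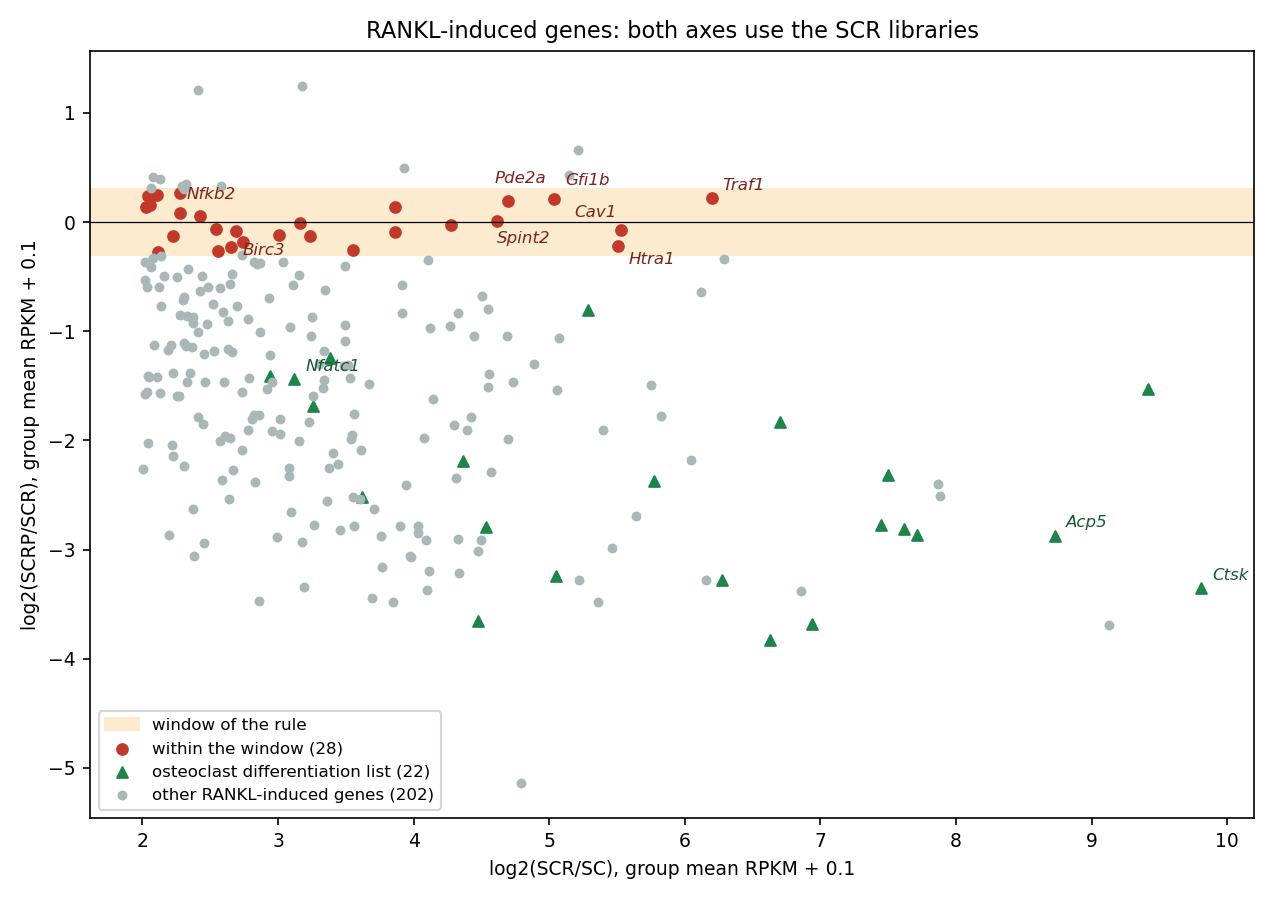
log2(SCRP/SCR) against log2(SCR/SC) for the 252 RANKL-induced genes, each from group mean RPKM plus 0.1. The 28 genes lie in the shaded window by choice, and both axes use the same SCR libraries. The 22 RANKL-induced genes of the osteoclast differentiation list lie below the window, as do 84.1% of all 252.

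Among the 28 were 3 genes of the TNF receptor and NF-kB machinery: Traf1, Birc3 and Nfkb2. Traf1 encodes an adaptor that binds TNF receptors together with TRAF2. It lies at chr2:34941750-34961772 on the minus strand of GRCm38. Its level was 14.6, 13.4 and 14.3 RPKM in SCRP libraries, 12.9, 11.5 and 12.1 RPKM in SCR libraries, and 0.0751, 0.0618 and 0.0635 RPKM in SC libraries. SCRP and SCR lay close together with every SCRP library above every SCR library, and both stood far above SC. Traf1 had the largest log2(SCR/SC) of the 28, at 6.20, with 85 reads over the SC libraries against 16025 over the SCR libraries. The mean with pterosin B was 116% of that in SCR.

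Birc3 encodes cIAP2, a ubiquitin ligase that binds TRAF proteins and controls the stability of NIK (chr9:7848699-7873186, minus strand). It had 25.1, 21.9 and 24.9 RPKM in SCRP, 26.2, 23.7 and 26.1 RPKM in SCR, and 3.79, 3.96 and 3.80 RPKM in SC. The SCRP and SCR ranges overlapped, and the SCRP mean was 94.5% of the SCR mean.

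Nfkb2 encodes the precursor that is processed into the DNA-binding subunit of the alternative NF-kB pathway (chr19:46304320-46312385, plus strand). It had 55.2, 52.4 and 49.4 RPKM in SCRP, 51.6, 49.7 and 50.1 RPKM in SCR, and 9.65, 9.17 and 9.08 RPKM in SC. SCRP and SCR overlapped, and the means differed by 0.05 on the log2 scale. The gene lies beside Psd on the opposite strand and shares 299 exon bases with it.

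Promoter windows of 250 bases before to 50 after a transcript start (RefSeq, GRCm38.p6) were found for 24 of the 28 genes, 36 windows in all. They were searched on both strands for an NF-kB consensus of 10 letters, AP-1 (TGANTCA), the CRE core (TGACG), the NFAT core (GGAAAA) and the E-box (CACGTG). A match to the NF-kB consensus can contain the NFAT core, as the match of Tmem176b does. The NF-kB consensus was present in 6 of the 36 windows (16.7%), in 13 of 217 windows (5.99%) of the genes below the pterosin B window, and in 1480 of 32851 windows (4.51%) of all genes. The 6 windows belong to 4 genes, Nfkb2 with 3 windows that partly overlap and Fnbp1l, Ptchd1 and Tmem176b with 1 each. The single match in the third Nfkb2 window is a site that the second window also holds, so the share by window counts it in both. Counted by gene, the consensus was found for 4 of 24 genes, against 13 of 151 genes below the pterosin B window. No share by gene is given for all genes. The AP-1 motif was in 1 of the 36 windows (2.78%), in 13.4% of the windows of genes below the pterosin B window and in 7.81% of all windows. In the same order, the CRE core was in 27.8%, 18.0% and 20.8% of windows, the NFAT core in 30.6%, 23.0% and 23.4%, and the E-box in 2.78%, 5.99% and 7.15%. No test of these shares was made, and a match is only a run of letters. The first Nfkb2 window and the Tmem176b window are shown because both genes are among the 28 and their matches lie within 50 bases of the transcript start. The second of the 3 Nfkb2 windows is shown because it also holds matches. Capitals mark the NF-kB consensus, on either strand, and adjoining matches run together.
Nfkb2, chr19:46304487-46304786, plus strand: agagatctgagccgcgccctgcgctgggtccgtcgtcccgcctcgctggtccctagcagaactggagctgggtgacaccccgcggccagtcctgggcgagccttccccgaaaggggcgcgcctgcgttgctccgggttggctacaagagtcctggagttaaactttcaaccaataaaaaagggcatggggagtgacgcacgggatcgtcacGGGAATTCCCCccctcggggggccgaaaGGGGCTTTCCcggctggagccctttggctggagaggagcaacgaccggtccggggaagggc
Nfkb2, chr19:46305445-46305744, plus strand: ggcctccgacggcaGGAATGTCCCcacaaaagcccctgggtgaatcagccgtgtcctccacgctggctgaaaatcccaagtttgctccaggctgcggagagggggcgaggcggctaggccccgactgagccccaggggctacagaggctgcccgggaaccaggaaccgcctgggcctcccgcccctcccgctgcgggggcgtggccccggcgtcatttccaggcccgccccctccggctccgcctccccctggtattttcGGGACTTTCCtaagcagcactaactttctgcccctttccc
Tmem176b, chr6:48841325-48841624, minus strand: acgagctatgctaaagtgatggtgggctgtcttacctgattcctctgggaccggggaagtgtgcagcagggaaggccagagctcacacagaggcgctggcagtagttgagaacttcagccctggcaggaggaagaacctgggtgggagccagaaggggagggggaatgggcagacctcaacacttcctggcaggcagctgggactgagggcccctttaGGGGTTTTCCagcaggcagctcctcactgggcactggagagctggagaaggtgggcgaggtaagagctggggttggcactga
In the first Nfkb2 window the matches begin at position -39 from the start, and the single match of Tmem176b begins at position -32. The windows of Traf1 and Birc3 held no match to the NF-kB consensus.

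The rest of the pathway was read from a list of 25 RANK and TNF receptor signalling genes, 24 of them tested. By edgeR at an adjusted p under 0.05, 15 were higher and 6 lower in SCR against SC, where 30.7% of all genes were higher and 28.4% lower. In SCRP against SCR, 8 were higher and 6 lower, where 17.9% and 19.9% of all genes were, and the list's median log2 fold change was 0.02 against 0.00 over all genes. Only Traf1 and Birc3 of this list met the criteria for induction. The TNF receptor family gene Tnfrsf9, held in the cytokine and receptor list instead, was also induced but lay far below the window. It averaged 0.482 RPKM in SCRP, 4.51 RPKM in SCR and 0.00463 RPKM in SC, a log2(SCRP/SCR) of -2.98. Of 35 tested genes in a second list, of NF-kB subunits, inhibitors and targets, 18 were higher and 8 lower in SCR against SC, and 9 were higher and 8 lower in SCRP against SCR, with a median of 0.04. Nfkb2 and Il1rn were the only induced genes of that list. Il1rn, the secreted antagonist of the interleukin-1 receptor, was below the window, with 1.85 ± 0.244 RPKM in SCRP, 10.1 ± 0.447 RPKM in SCR and 1.33 ± 0.108 RPKM in SC (SD, n = 3).

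Several partners of Nfkb2 and Traf1 were higher with RANKL by less than the 4-fold criterion. They are named here after their values were seen. Nfkbie, an inhibitor that holds NF-kB in the cytoplasm, was just outside at log2(SCR/SC) of 1.92 and had 15.8, 16.3 and 16.5 RPKM in SCRP, 14.7, 13.9 and 13.3 RPKM in SCR and 3.40, 3.95 and 3.51 RPKM in SC. Relb, the partner of the processed Nfkb2 protein, averaged 11.9 ± 0.249 RPKM in SCRP, 10.2 ± 0.776 RPKM in SCR and 3.39 ± 0.399 RPKM in SC (SD, n = 3). For both genes every SCRP library lay above every SCR library, and every SCR library above every SC library. Both passed as higher in SCRP than in SCR by edgeR (Nfkbie log2 0.21, adjusted p = 0.0223, and Relb log2 0.21, adjusted p = 0.0463). The adaptor genes Traf2 and Traf3 averaged 8.71 and 16.1 RPKM in SCRP, 8.97 and 16.2 RPKM in SCR, and 3.35 and 7.24 RPKM in SC, and neither passed in SCRP against SCR. Map3k14, which encodes NIK, averaged 6.05 ± 0.173 RPKM in SCRP, 4.32 ± 0.317 RPKM in SCR and 2.91 ± 0.167 RPKM in SC, and passed as higher in SCRP than in SCR (log2 0.47, edgeR adjusted p = 6.30e-05). Lower members of the lists were Ikbkg, the regulatory subunit of the IKK complex, at 10.2 RPKM in SCRP and 19.2 RPKM in SCR, and the subunit gene Rel at 7.49 RPKM in SCRP and 9.97 RPKM in SCR. Both lists therefore held genes on either side of 0.

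None of the 28 was in the osteoclast differentiation list. All 22 genes of that list that met the induction criteria were below the pterosin B window, as were 84.1% of all RANKL-induced genes. Nfatc1 averaged 21.4 ± 2.12 RPKM in SCRP, 58.3 ± 1.87 RPKM in SCR and 6.62 ± 0.265 RPKM in SC (SD, n = 3), so that its SCRP mean was 36.7% of the SCR mean. Ctsk, the collagen-degrading protease of osteoclasts, had an SCRP mean of 9.77% of the SCR mean. Fos, an AP-1 subunit needed for osteoclast formation, fell just outside the induction criterion at 1.998 on the log2 scale and had 111.8, 104.2 and 110.4 RPKM in SCRP, 104.9, 101.3 and 98.9 RPKM in SCR, and 28.7, 25.5 and 21.97 RPKM in SC. Its SCRP and SCR ranges overlapped. With unique reads alone Fos met the whole rule, so the absence of this list's genes depends on the reads used. Of 9 induced genes in the actin, adhesion and axon guidance list, 9 were below the window, near that share of 84.1%. Il2rg was the one gene within the window of 8 induced genes in the cytokine and receptor list. Tmem176b was the one of 2 in the dendritic cell list, the other being Cd200. Of all RANKL-induced genes, 11.1% were within the window.

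Rnf19b, a RING-type ubiquitin ligase, was the most abundant of the 28 (chr4:129058271-129085886, plus strand). It had 102, 98.2 and 104 RPKM in SCRP, 99.6, 94.5 and 93.3 RPKM in SCR, and 21.1, 19.6 and 18.4 RPKM in SC. The SCRP and SCR ranges overlapped. Il2rg encodes the common gamma chain, shared by several interleukin receptors (chrX:101264378-101268255, minus strand). Its level was 63.5, 62.7 and 70.3 RPKM in SCRP, 66.9, 68.3 and 69.8 RPKM in SCR, and 11.1, 10.7 and 13.2 RPKM in SC. Only 44.2% of its exon reads were unique, and 30.5% of its exon bases also belong to Gm20489, which had 0.0518 RPKM in SCR.

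Other receptors, ligands and membrane proteins follow. Clec2d encodes osteoclast inhibitory lectin, a ligand of natural killer cell receptors. It had 24.2, 23.5 and 17.9 RPKM in SCRP, 23.2, 22.1 and 20.7 RPKM in SCR, and 1.89, 2.13 and 3.09 RPKM in SC, and its SCRP mean of 99.4% of SCR was among the closest of the 28. SCRP replicate 3 was the low one, and without it log2(SCRP/SCR) was 0.12, against -0.01 with it. Gpr132 encodes a G protein-coupled receptor of leukocytes. Its level was 15.4, 14.9 and 15.3 RPKM in SCRP, 13.6, 13.8 and 13.9 RPKM in SCR, and 0.732, 1.04 and 0.785 RPKM in SC. The spread within SCRP and SCR was small, and all SCRP libraries stood above all SCR libraries. Tmem176b, a membrane protein gene expressed in myeloid cells, had 12.7, 11.04 and 13.1 RPKM in SCRP, 10.8, 11.3 and 11.3 RPKM in SCR, and 2.94, 2.53 and 2.50 RPKM in SC, overlapping between SCRP and SCR. Of the 28, it was the nearest to the induction threshold, at 2.03 on the log2 scale.

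Flrt2, an adhesion protein that binds Unc5 guidance receptors, had 18.4, 18.2 and 18.1 RPKM in SCRP, 20.3, 19.8 and 19.7 RPKM in SCR, and 1.90, 1.87 and 2.34 RPKM in SC. Its SCRP libraries were all slightly below its SCR libraries. Cacng8, an auxiliary subunit of AMPA-type glutamate receptors, averaged 3.65 ± 0.714 RPKM in SCRP, 4.40 ± 0.352 RPKM in SCR and 0.666 ± 0.338 RPKM in SC (SD, n = 3). Without SCRP replicate 1 its log2(SCRP/SCR) was -0.43, outside the window. Ptchd1, a protein with a Patched domain, averaged 3.83 ± 0.398, 4.10 ± 0.306 and 0.189 ± 0.0453 RPKM in SCRP, SCR and SC. Gfra2, the receptor for neurturin, had 2.73, 2.08 and 2.27 RPKM in SCRP, 2.90, 2.27 and 2.02 RPKM in SCR, and 0, 0.0513 and 0.0365 RPKM in SC, where 14 reads were counted over all 3 libraries. The last 3 genes overlapped between SCRP and SCR.

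Pde2a, a phosphodiesterase stimulated by cyclic GMP, had 33.1, 32.9 and 25.5 RPKM in SCRP, 28.4, 27.8 and 23.7 RPKM in SCR, and 1.403, 1.01 and 0.375 RPKM in SC. Replicate 3 was the lowest library in each of the groups, and without SCRP replicate 3 the difference between SCRP and SCR was 0.31 on the log2 scale, outside the window. Of its exon bases, 64.3% also belong to Gm45837, and 4.55% of its exon reads were unique. Its log2(SCR/SC) was 4.70 with all exon reads and 3.01 with unique reads. Rrad, a small GTPase that inhibits calcium channels, had 12.5, 11.8 and 9.03 RPKM in SCRP, 12.2, 11.3 and 12.6 RPKM in SCR, and 1.30, 1.67 and 1.26 RPKM in SC. Its SCRP replicate 3 was also low, the ranges overlapped, and log2(SCRP/SCR) was 0.01 without that library, against -0.12 with it.

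Fgr, a Src-family kinase of myeloid cells, averaged 4.41 ± 0.766 RPKM in SCRP, 4.83 ± 0.502 RPKM in SCR and 0.957 ± 0.101 RPKM in SC (SD, n = 3), and Src, the related kinase of the osteoclast list, averaged 9.09 RPKM in SCRP and 32.6 RPKM in SCR. Ppm1l, a protein phosphatase of the metal-dependent class, averaged 2.39 ± 0.408, 2.88 ± 0.143 and 0.154 ± 0.0302 RPKM in SCRP, SCR and SC. Without SCRP replicate 1 its log2(SCRP/SCR) was -0.40, outside the window. Psd, an exchange factor for the GTPase Arf6, had the lowest level of the 28, at 1.46 ± 0.202 RPKM in SCRP, 1.22 ± 0.125 RPKM in SCR and 0.206 ± 0.0784 RPKM in SC. It shares 299 exon bases with Nfkb2, a gene of the opposite strand at 50.5 RPKM in SCR. The counted strand was not given, so Psd exon reads may include Nfkb2 reads, and the place of Psd among the 28 is uncertain. The part of such reads in the Psd level was not tested. Fgr, Ppm1l and Psd overlapped between SCRP and SCR. Ppp1r12b, a targeting subunit of myosin phosphatase, had 21.6, 22.1 and 21.01 RPKM in SCRP, 17.4, 18.4 and 18.0 RPKM in SCR, and 4.25, 3.58 and 3.03 RPKM in SC. All its SCRP libraries were above all its SCR libraries. Of its exon reads, 20.7% were unique, and with unique reads alone its log2(SCRP/SCR) was 0.36 and its log2(SCR/SC) 1.98, both outside the rule.

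Proteins that shape membranes and the actin cortex included Cav1, the coat protein of caveolae (chr6:17306335-17341452, plus strand). It had 24.3, 28.8 and 25.6 RPKM in SCRP, 28.8, 26.2 and 27.7 RPKM in SCR, and 0.610, 0.521 and 0.363 RPKM in SC. SCRP and SCR overlapped. Its log2(SCR/SC) was 5.53, and 4.797 with the 16.6% of reads that were unique. Fnbp1l encodes an F-BAR protein that links Cdc42 to actin assembly. Its level was 17.5, 14.7 and 15.8 RPKM in SCRP, 20.2, 18.5 and 19.4 RPKM in SCR, and 4.04, 4.44 and 4.70 RPKM in SC, with every SCRP library below every SCR library. Epn2, an epsin of clathrin-mediated endocytosis, averaged 2.30 ± 0.124 RPKM in SCRP, 2.72 ± 0.290 RPKM in SCR and 0.349 ± 0.0137 RPKM in SC (SD, n = 3), also with SCRP below SCR. Fhod3, a formin, averaged 2.67 ± 0.106, 2.39 ± 0.177 and 0.50 ± 0.069 RPKM in SCRP, SCR and SC, with SCRP above SCR.

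Of the secreted and matrix proteins, Htra1, a serine protease, had 6.12, 3.94 and 5.78 RPKM in SCRP, 6.97, 5.68 and 5.80 RPKM in SCR, and 0.0526, 0 and 0.0598 RPKM in SC, with 16 reads over the SC libraries. Spint2, an inhibitor of serine proteases such as hepatocyte growth factor activator, had 3.25, 2.89 and 3.29 RPKM in SCRP, 3.28, 2.65 and 3.42 RPKM in SCR, and 0.0249, 0.0698 and 0 RPKM in SC, with 20 reads over the SC libraries. Both were near absent without RANKL and overlapped between SCRP and SCR, and the Spint2 means were 0.01 apart on the log2 scale. Col4a5, a chain of type IV collagen, averaged 3.13 ± 0.181 RPKM in SCRP, 2.63 ± 0.176 RPKM in SCR and 0.564 ± 0.0620 RPKM in SC (SD, n = 3), with SCRP above SCR. The collagen chain genes Col4a1 and Col4a2 lay just above the window, at 0.30 and 0.33. Slc5a3, the sodium-coupled transporter of myo-inositol, averaged 3.25 ± 0.241, 3.70 ± 0.173 and 0.469 ± 0.0535 RPKM in SCRP, SCR and SC. It overlaps Mrps6, a gene at 26.3 RPKM in SCR, 2.49% of its reads were unique, and with unique reads its log2(SCR/SC) was 0.91, below the threshold, so its place among the 28 is uncertain.

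Gfi1b, a transcriptional repressor known from erythroid and megakaryocyte cells, had 4.62, 3.80 and 4.52 RPKM in SCRP, 4.06, 3.30 and 3.74 RPKM in SCR, and 0, 0 and 0.0471 RPKM in SC, where only 4 reads were counted in all. The SCRP and SCR ranges overlapped. Erythroid and megakaryocyte markers, whose summed level is given above, were highest in SCRP replicate 3, where the haemoglobin genes stood out, while the erythroid transcription factor gene Gata1 was listed at 0 RPKM in all SCRP libraries. Without that library log2(SCRP/SCR) of Gfi1b was 0.18, against 0.22 with it. The part of erythroid cells in the Gfi1b level was not tested. Jarid2, an accessory subunit of Polycomb repressive complex 2, had 19.2, 16.3 and 17.2 RPKM in SCRP, 15.6, 14.2 and 14.6 RPKM in SCR, and 3.41, 3.54 and 3.37 RPKM in SC, with SCRP above SCR.

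The table also counts reads in introns, which come mostly from RNA not yet spliced. They are given as intron CPM, intron reads scaled to the library total. These reads come from the same libraries that the rule used. No share over all genes is given beside the intron counts below, so they are a description. Of the 28 genes, 23 averaged at least 50 intron reads in SCR. Their intron log2(SCRP/SCR) ran from -1.13 (Slc5a3) to 0.58 (Gfi1b) with a median of 0.00, and 18 of the 23 lay within the same window of 0.3. Traf1 had 11.1 intron CPM in SCRP, 8.58 in SCR and 0.0295 in SC. Birc3 had 89.2, 97.3 and 12.7 intron CPM in SCRP, SCR and SC, and Nfkb2 had 9.20, 9.59 and 2.41 intron CPM. For these 3 genes the intron reads were higher with RANKL as the exon levels were. In SCR against SC, 19 of 22 genes with intron reads in SC had an intron log2 of at least 2. Jarid2 differed, with 80.6, 81.2 and 81.5 intron CPM in SCRP, SCR and SC, while its exon level in SCR was 4.30 times that in SC. Slc5a3, which overlaps Mrps6, had 4.01, 0.471 and 0.364 intron CPM in SCRP libraries, 5.03, 2.83 and 2.74 in SCR libraries, and a mean of 0.264 in SC. SCRP replicate 1 stood far above the other SCRP libraries and within the SCR range, and without it the intron log2(SCRP/SCR) of Slc5a3 was -3.08, a value computed after the data had been seen.

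**Figure D3:**
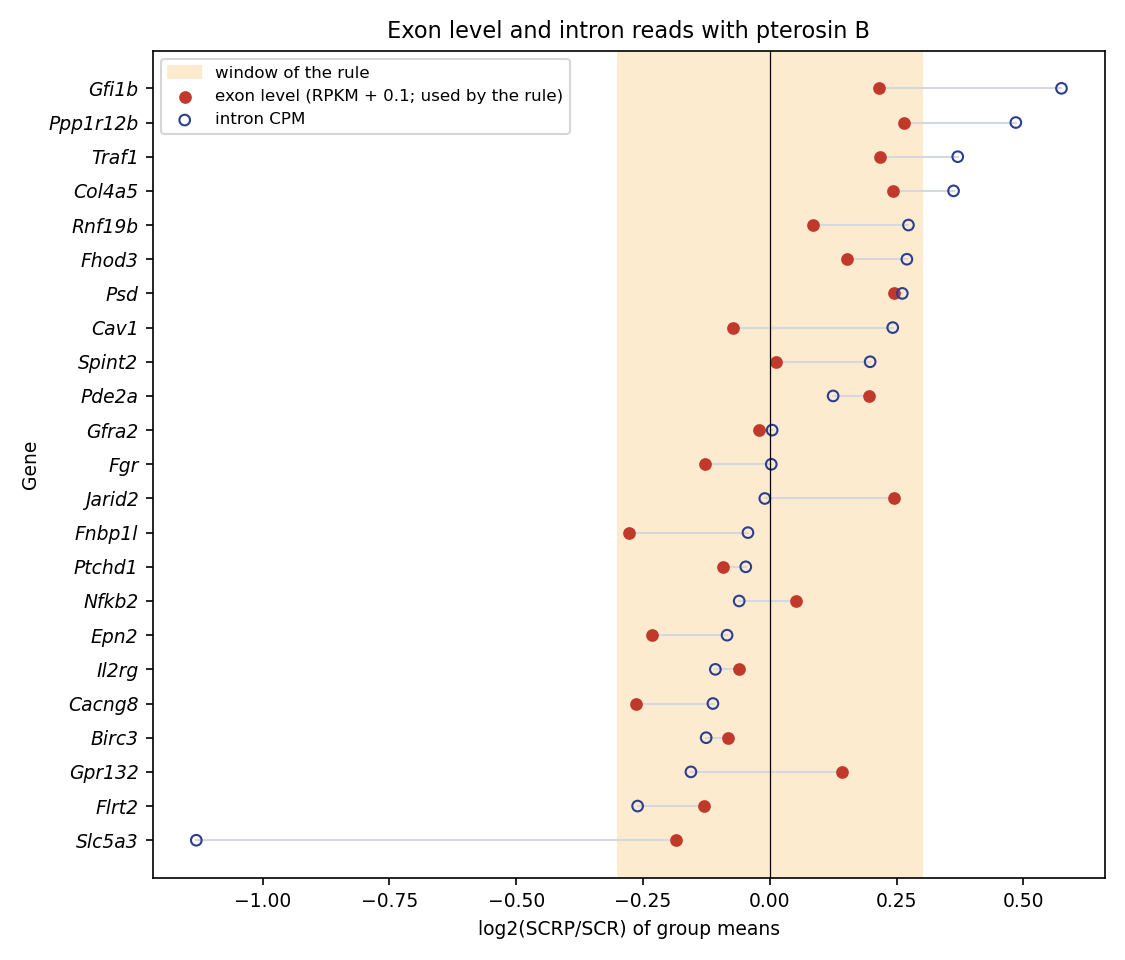
log2(SCRP/SCR) of the exon level (filled, used to choose the genes) and of intron CPM (open) for the 23 genes with at least 50 intron reads per SCR library on average. Intron values of 18 genes lie within the shaded window, 4 lie above it (Gfi1b, Ppp1r12b, Traf1 and Col4a5) and that of Slc5a3 lies below it at -1.13, or -3.08 without SCRP replicate 1.

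The knockout libraries were not used in choosing the genes. The deposited knockout table holds only the 2275 genes with an authors' false discovery rate under 0.05 and a fold of at least 2, so a gene that is not in it has no value, and its level in KO is not analysed here. Of the 28 genes, 13 were listed (46.4%), all as lower in KO, and in each the 3 KO libraries lay below the 3 WT libraries. Among all 13650 genes tested in the pterosin B experiment, 7.08% were listed as lower in KO, and among those with at least 1 RPKM in SCR, 4.19% were. Of genes passing as higher in SCR against SC with a log2 fold change of at least 2, 72.2% were. Among the 212 RANKL-induced genes below the pterosin B window, 186 (87.7%) were listed as lower, and among the 12 above it 5 (41.7%) were. The difference between these shares was not tested. All 13 passed by edgeR on the listed counts, as did 99.5% of the listed genes tested (51.3% as lower), since the table was selected on these libraries. Their median log2(KO/WT) was -1.77, and the median of the listed genes below the window was also -1.77. The latter was -1.82 for genes at least 2-fold lower with pterosin B and -1.50 for the others below the window. Genes that changed less than 2-fold in KO are not listed, so these medians cannot compare the full sets.

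Ptchd1 had the largest fall, with 0.485, 0.396 and 0.334 RPKM in KO libraries, against 5.49, 5.95 and 6.25 RPKM in WT libraries. It was 14.7-fold lower in KO (log2 -3.88 ± 0.15 SE, with an edgeR Benjamini-Hochberg adjusted p = 1.17e-16). Col4a5 had 0.714, 0.673 and 0.895 RPKM in KO, against 4.92, 4.51 and 4.70 RPKM in WT, and was 6.17-fold lower (log2 fold change -2.62 ± 0.10 SE, adjusted p = 2.40e-16 by edgeR). These genes stood at 93.6% and 119% of their SCR level with pterosin B.

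Cav1 had 11.7, 11.05 and 10.7 RPKM in KO, against 33.5, 31.4 and 33.8 RPKM in WT, 2.96-fold lower. Fnbp1l had 6.90, 6.33 and 6.33 RPKM in KO, against 21.4, 20.9 and 22.8 RPKM in WT, 3.33-fold lower. For Pde2a the values were 4.16, 4.09 and 4.60 RPKM in KO, against 12.7, 15.3 and 14.9 RPKM in WT, 3.34-fold lower. These are the most abundant of the 13 in WT, and their KO and WT libraries stood well apart. Gfi1b had 0.565, 0.412 and 0.443 RPKM in KO, against 1.71, 1.98 and 2.24 RPKM in WT, 4.20-fold lower. The other genes were lower in KO by 2.29-fold (Fhod3), 2.38-fold (Flrt2), 3.003-fold (Cacng8), 3.41-fold (Spint2), 3.76-fold (Htra1), 4.21-fold (Ppm1l) and 4.32-fold (Gfra2). KO cultures had 2 days of RANKL and SCRP cultures 3, the tables were scaled separately, and levels are not compared across them.

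**Figure D4:**
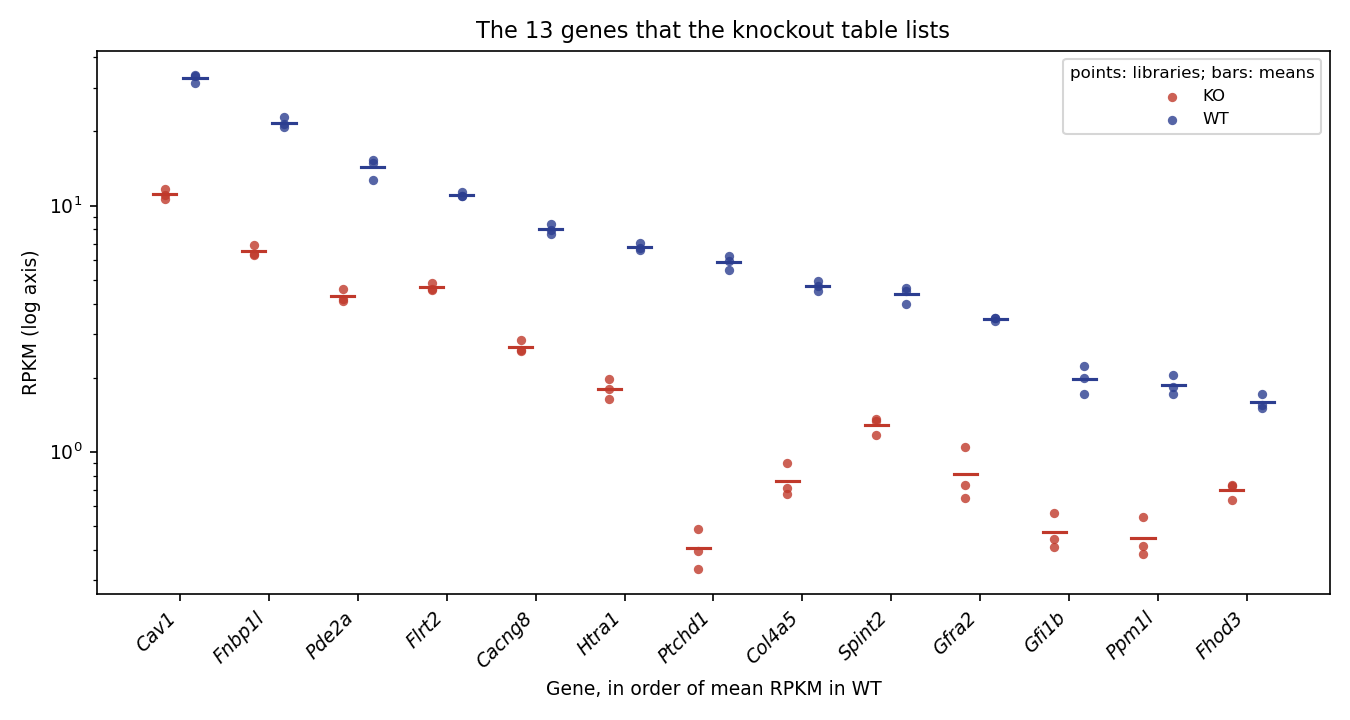
RPKM (log axis) of the 13 listed genes in the 3 KO and 3 WT libraries, with bars at the group means. Every KO library lies below every WT library for each gene, from 2.29-fold for Fhod3 to 14.7-fold for Ptchd1.

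The 15 genes that the knockout table does not list were Rnf19b, Il2rg, Nfkb2, Birc3, Clec2d, Ppp1r12b, Jarid2, Gpr132, Traf1, Rrad, Tmem176b, Fgr, Slc5a3, Epn2 and Psd. The 3 genes of the TNF receptor and NF-kB machinery are all among them. The 15 had a median log2(SCR/SC) of 2.54 and a median level of 13.8 RPKM in SCR, and the 13 listed genes had 3.86 and 4.10 RPKM. The ranges overlapped. Of the 15, Traf1 had the largest induction of the 28 and Gpr132 had a log2(SCR/SC) of 3.87, while Col4a5 of the 13 had 2.04. The list of RANK and TNF receptor signalling genes had 2 listed in the knockout table, Tnfrsf11a as lower and Tifa as higher, and the osteoclast differentiation list had 26, all lower. Tnfrsf11a, which encodes RANK itself, was lower in KO (log2 -1.43, edgeR adjusted p = 2.18e-18). The KO mice carry Cre driven by this same gene, and whether WT did was not stated. That allele and the loss of Sik3 cannot be told apart here.

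Genes close to the limits of the rule show how it divides a continuous range. At the lower end of the window, Fnbp1l, Cacng8 and Ppm1l were just inside at -0.28, -0.26 and -0.26, and Ppp2r3a, Uchl1 and Sbsn just outside at -0.31, -0.31 and -0.33. At the upper end, Ppp1r12b, Psd and Jarid2 were just inside at 0.26, 0.25 and 0.24, and Col4a1, Asns and Slc4a7 just outside at 0.30, 0.32 and 0.33. At the induction limit, Tmem176b, Col4a5 and Fhod3 were inside at 2.03, 2.04 and 2.05, and Fos, Nfkbie and Mllt6 outside at 1.998, 1.92 and 1.90. At the level limit, Psd, Fhod3 and Gfra2 were inside at 1.22, 2.39 and 2.40 RPKM, and only Strip2 and Ccser1 met all other criteria, at 0.868 and 0.538 RPKM.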

How the data were processed

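The genes, the gene lists and the motifs were chosen with earlier results of these data known. The authors deposited whole-number counts of exon reads, unique exon reads and intron reads per gene, and RPKM scaled by the authors for exon length and library total, per the file headers. The knockout table also holds the authors' score, a signed fold, and deposited p-values after false discovery rate correction, per the file headers, and other deposited values are gene positions and lengths. The build is GRCm38 (mm10), per the submitters' processing notes. Directional libraries were made after removal of ribosomal RNA, per the labels' protocols. The aligner, the counter and the counted strand were not given in the sources used here, so reads of genes on opposite strands that overlap cannot be told apart. A further 174 per-sample columns were not used. The series text mentions embryonic livers, and the sample labels, which name bone marrow monocytes, were followed.

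The rule was applied to deposited RPKM with 0.1 added to group means. Log2 values on this scale understate the change of low genes. Counts were tested with edgeR 4.0.16 (quasi-likelihood, TMM, filterByExpr) in R 4.3.3, the 9 libraries of SCRP, SCR and SC in 1 fit, with Benjamini-Hochberg adjustment over 13650 genes and a threshold of 0.05. All tests were two-sided. For KO against WT, 1773 listed genes were tested with library totals implied by RPKM and no further scaling. The script was tested on simulated data. Intron CPM, intron counts scaled to library totals, use totals implied by RPKM. Gene overlaps come from GENCODE mouse release 21, and the positions of all 28 genes equal its positions. Named with values are the 20 most abundant genes, the most and least changed, the neighbours of each limit, and all genes of the knockout table and the lists. Alternatives were DESeq2 1.42.0, other scaling, filters, pseudocounts and limits, unique reads, a replicate block and leaving out each library. Samples with the same number were not treated as pairs. Other steps used Python 3.11.15 with pandas 2.3.3, numpy 2.4.6 and matplotlib 3.10.9.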

Additional observations from a re-analysis of the deposited data

How the results depend on the processing

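The rule's own limits set how many genes it holds. In place of 28 it gave 15 with a pseudocount of 1, 16 with SCR of at least 5 RPKM, 59 and 13 with a log2 induction of at least 1.5 and 3, and 17 and 54 with a window of 0.2 and 0.5. A pseudocount of 0.01 gave 29 genes, unique reads 30, TMM-scaled totals 25 and keeping Gm and Rik names 29. Leaving out each library in turn gave 26 to 32, with 24 to 27 of the 28 kept. Without SCRP replicate 1, log2(SCRP/SCR) was -0.43 for Cacng8, -0.40 for Ppm1l, -0.35 for Fnbp1l and -0.33 for Htra1, all outside the window. Psd was outside it without SCRP replicate 2 (0.31) or SCR replicate 1 (0.33), and Fnbp1l also without SCR replicate 2 (-0.31). TMM-scaled totals lost Col4a5, Fhod3, Jarid2 and Tmem176b and added Col4a1. Unique reads lost Ppp1r12b and Slc5a3 and added Fos, Ppp2r3a, Strip2 and Uchl1, of which Fos is in the osteoclast differentiation list. Of the 28, 4 passed in SCRP against SCR, 7 without a filter on low counts, 8 with only those groups fitted, 3 with DESeq2, 6 with unique reads and 3 to 8 with a library left out, the highest without SC replicate 3. Traf1, Jarid2 and Fnbp1l passed in all 16 settings and Ppp1r12b in 12. All 28 passed in SCR against SC and SCRP against SC, and all 13 in KO against WT, in every setting run, the replicate block included. The rule chose the 28 on the SCRP, SCR and SC libraries, and the authors chose the listed genes on the KO and WT libraries. These counts were therefore largely set by selection and are no measure of stability. With the replicate block, 5 of the 28 passed in SCRP against SCR. The numbers share no stated animal or batch: same-numbered SCRP and SCR libraries had correlated deviations of 0.0446 to 0.175, each of the 6 closest to its own number, and KO and WT -0.158 to -0.0686. Each log2 ratio of the 28 genes was computed again under its alternative settings, which gave 252 values per ratio. These are not the 252 RANKL-induced genes. For log2(SCRP/SCR), 1 of the 252 values moved by more than the spread between replicates. For log2(SCR/SC), 33 of 252 did, mostly with a pseudocount of 1. Smaller moves also took genes out of the window, as given above. No log2(SCR/SC) changed sign, but differences near 0 did, such as Clec2d and Rrad without SCRP replicate 3 (0.12 and 0.01). The cause of these moves was not tested. Gfi1b, Gfra2, Htra1 and Spint2 had 4 to 20 reads over the SC libraries, so their folds are imprecise. Of counts from 1 to 39, 75.3% to 79.0% were even in SCRP, SCR and SC libraries, against 45.5% to 50.7% in KO and WT. The SC counts of Gfi1b, Gfra2, Htra1 and Spint2 were all even. Whether a read pair was counted as 2 reads was not stated, so separate fragments may be fewer than the counts.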
